A study of Mus musculus with 12 samples.

Results

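The keratin genes, read as symbols of the form Krt followed by a number and an optional letter, were followed through regrowing mouse skin. The gene table of the array's organism held 54 of them, 53 had a probe on the array and 52 passed the filter for signal above background on at least 3 of 12 arrays, out of 16183 genes tested. Krt83 had no probe and Krt76, a keratin of the palate, was not above background on any array. By keratin number, 14 of the 52 were shaft keratins (Krt31 to Krt40 and Krt81 to Krt87), 8 were inner root sheath keratins (Krt25 to Krt28 and Krt71 to Krt74) and 30 were other epithelial keratins. The other keratins were ordered by the layer they are known for, with 3 basal, 6 suprabasal, 6 outer root sheath, duct and stress, 7 simple and glandular, and 5 mucosal, corneal and nail keratins, and 3 without an assigned layer (Krt88, Krt90 and Krt222).

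The skin of 12 male mice was taken 12 days after plucking and its total RNA measured on 1 one-colour array per mouse to learn how Sox4 bears on hair regrowth and on stem cell activation in the follicle. All mice were of mixed C57Bl6/129Sv background (75:25) and were either wild type (WT) or carried a skin-specific conditional knockout of Sox4 (cKO), with a Cre driver that the labels do not name. In Exp 1, 3 WT mice (numbers 1, 2 and 3, at 69 to 72 weeks of age) and 3 cKO mice (numbers 2, 5 and 6, at 68 to 72 weeks) were sampled. In Exp 2, 3 WT mice (numbers 4, 5 and 6, at 18 to 20 weeks) and 3 cKO mice (numbers 1, 3 and 4, at 16 to 18 weeks) were sampled, so that the effects of age and of the experiment cannot be told apart. Every level below is the log2 signal of a gene minus the 75th percentile of its array, so 0 marks that percentile and 1 unit is a doubling, and levels of different genes are not comparable with each other.

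Keratins are the intermediate filament proteins of epithelia, and a filament forms only when an acidic type I keratin pairs with a basic type II keratin. The type I genes lie together on mouse chromosome 11 and the type II genes on chromosome 15, with the type I gene Krt18 beside its type II partner Krt8. Each epithelial layer has its own pair: Krt5 and Krt14 in basal cells, Krt1 and Krt10 in the layers above, the Krt25 and Krt71 groups in the inner root sheath that moulds the growing hair, and the cysteine-rich shaft keratins in cortex and cuticle. Shaft and inner root sheath keratins are made in growing follicles and are used as markers of the growth phase, anagen, which plucking starts.

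Sox4 itself, the targeted gene and a SoxC transcription factor, was between 1.90 and 2.43 in WT mice and between -4.26 and -2.55 in cKO mice. The share of probes with signal above background ran from 53.9% in cKO mouse 5 to 62.6% in WT mouse 6. In the keratins cKO mouse 5 stood apart as well. Against the mean of the other 11 mice, its shaft keratins had a median difference of -3.22, and 13 of 14 were below all 11 (20.8% of all genes were). Its inner root sheath keratins had a median difference of -1.35, with 7 of 8 below all 11. By contrast, its suprabasal keratins had a median difference of 1.73, with 6 of 6 above all 11 (21.4% of all genes were). Of these 6, Krt2 was at 0.32 beside 0.20 at most elsewhere. A second Krt2 probe, not used in the fit, read -1.21 in cKO mouse 5, within the range of the others (-2.31 to -0.02). Krt16, a keratin of stressed and wounded epidermis, was 7.24 in cKO mouse 5 and between 3.05 and 4.25 in the other mice. The same mouse had the lowest mean level of the 7 melanocyte markers, -0.23 against 2.41 to 3.57, and of the 6 adipocyte markers, 0.31 against 2.85 to 4.55. The part of these other cell types in its keratin levels was not tested. Class medians and counts of calls are given below with and without this mouse, and so are the differences of single keratins that lost their call or moved by over 1.5 times without it.

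**Figure D1:**
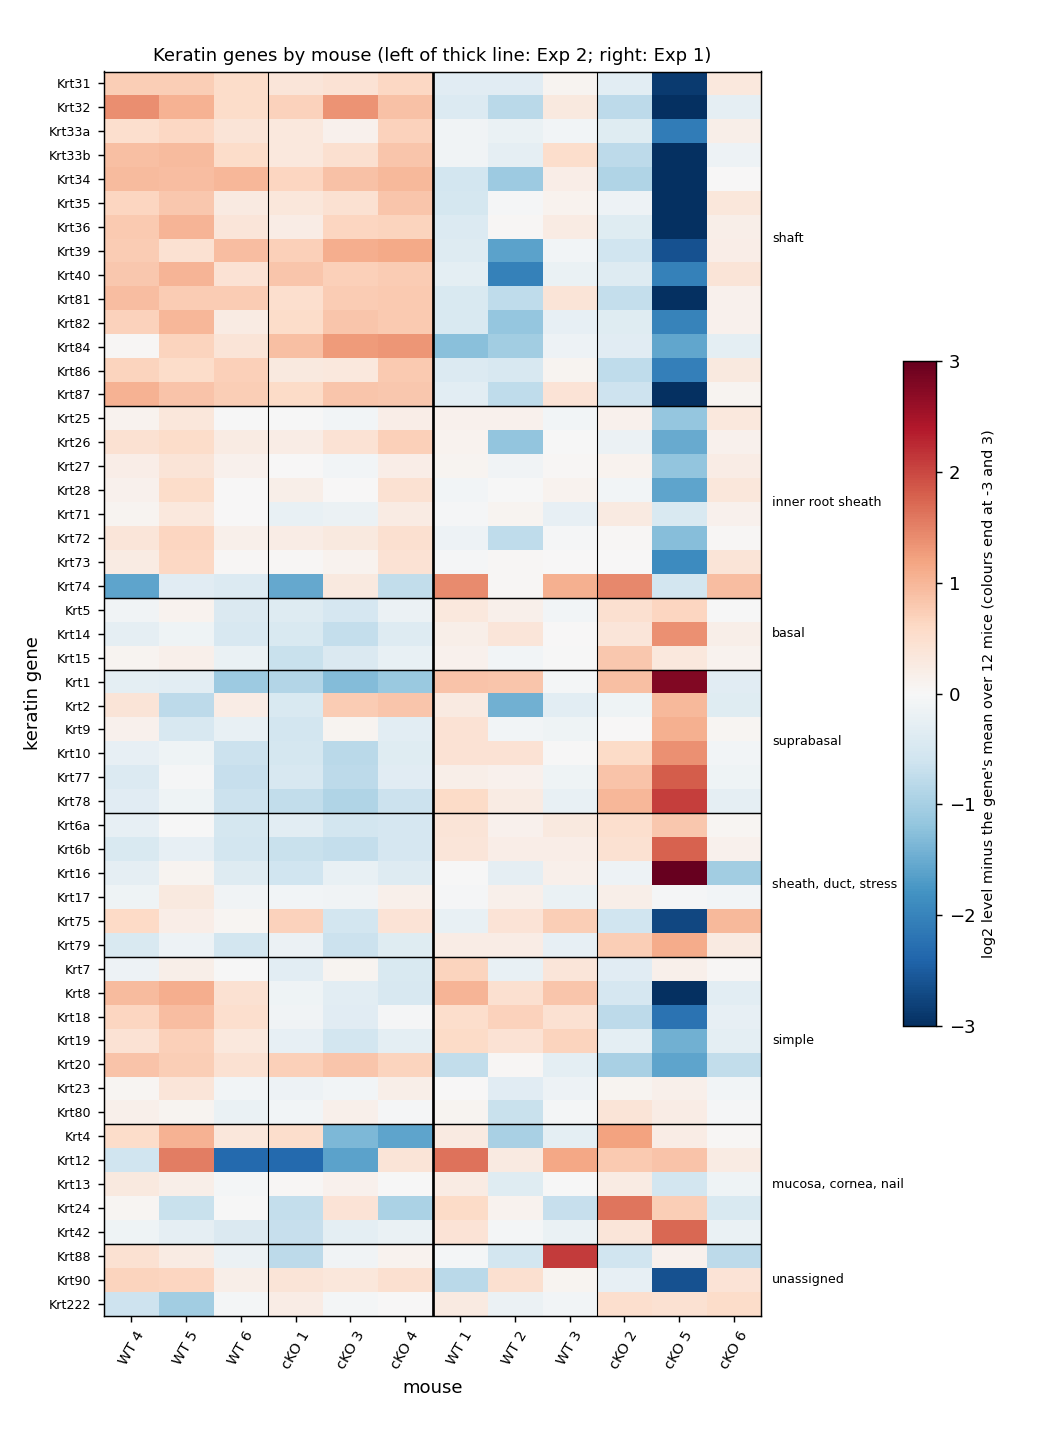
Level of each of the 52 keratin genes (rows, grouped by class and layer) in each of the 12 mice (columns), as log2 level minus the gene's own mean over all mice; colours end at -3 and 3. Every shaft keratin is above its mean in all 6 Exp 2 mice, and cKO mouse 5 has the lowest value for 13 of the 14.

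The follicle keratins differed in how much they varied among mice. Krt17, a keratin of the outer root sheath and of activated keratinocytes, had the smallest range of the 52, from 8.10 to 8.58. Among the inner root sheath keratins, Krt71, which carries dominant curly-coat mutations in mice, lay between 9.19 and 9.96, and Krt25, a type I keratin of the same sheath, between 8.45 and 8.89 in 11 mice and at 7.39 in cKO mouse 5. The other members of the class were wider, with ranges from 1.56 for Krt27 to 3.02 for Krt74, which lay between -5.17 and -2.15 with signal above background on 10 arrays. Without cKO mouse 5 the ranges were between 0.44 and 0.66 for Krt25, Krt27, Krt28, Krt71 and Krt73, and 1.40, 1.89 and 3.02 for Krt72, Krt26 and Krt74. The shaft keratins ranged more widely, from a range of 2.78 for Krt33a to 5.33 for Krt32, a cuticle keratin with -2.09 in cKO mouse 5 and 1.04 to 3.24 elsewhere. Without cKO mouse 5 the ranges of the shaft keratins lay between 1.06 and 3.06.

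The genotypes were compared first. Averaged over both experiments, none of the 52 keratins passed the threshold of adjusted p 0.05 (0 of 52, where 0.42% of all genes passed), and 4 had an unadjusted p under 0.05 (12.2% of all genes had). Of these 4, 3 had lower levels in cKO skin and all belong to the simple and glandular keratins: Krt8, Krt18 and Krt19. The fourth, Krt222, a keratin-like gene without an assigned layer, had the opposite sign (0.56, SE 0.16, adjusted p = 0.20). Krt18 and Krt19 were named for having the smallest p of the other keratins. Krt8 and Krt222 were named after their values were seen, so all 4 were picked from these data.

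Krt8, the type II keratin of simple epithelia, was -0.35, -0.87 and -0.52 in WT mice 1 to 3 of Exp 1 and -0.41, -0.26 and -0.91 in WT mice 4 to 6 of Exp 2. In cKO mice 2, 5 and 6 of Exp 1 it was -1.86, -4.45 and -1.67, and in cKO mice 1, 3 and 4 of Exp 2 it was -1.49, -1.68 and -1.85. Every cKO mouse was below every WT mouse, and the value of cKO mouse 5 was the only one not above background. The difference was -1.61 with this value included (SE 0.42, adjusted p = 0.15) and -1.17 without that mouse.

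Krt18, the type I partner of Krt8, was 2.99, 3.15 and 2.92 in WT mice of Exp 1 and 3.11, 3.38 and 2.96 in WT mice of Exp 2. Its levels in cKO mice were 1.67, 0.24 and 2.23 in Exp 1 and 2.37, 2.13 and 2.43 in Exp 2. Again the genotypes did not overlap, and the difference of -1.24 (SE 0.28, adjusted p = 0.10) was 2.36-fold. Krt19, a small type I keratin found in glands, ducts and the follicle bulge, was -0.93, -1.08 and -0.84 in WT mice of Exp 1 and -1.06, -0.79 and -1.19 in WT mice of Exp 2. In cKO mice it was -1.80, -2.95 and -1.79 in Exp 1 and -1.76, -2.06 and -1.80 in Exp 2. The groups were again separate, with a difference of -1.05 (SE 0.19, adjusted p = 0.057), 2.07-fold lower.

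Of the 52 keratins, these 3 had all 6 cKO mice below all 6 WT mice, as did 1.2% of all genes, and no keratin had all 6 above. Whether fewer cells expressed them or each cell held less RNA cannot be told apart in whole skin. In Exp 1 alone the differences were -2.08 for Krt8 (SE 0.59, adjusted p = 0.26), -1.64 for Krt18 (SE 0.39, adjusted p = 0.18) and -1.23 for Krt19 (SE 0.27, adjusted p = 0.18). With cKO mouse 5 left out these were -1.18, -1.07 and -0.85, none past the threshold. In Exp 2 the difference of Krt19 was -0.86 (SE 0.27, adjusted p = 0.81), and those of Krt8 and Krt18 were -1.15 and -0.84. Without cKO mouse 5, whose values were the lowest of all 3, the averaged differences were smaller and passed the threshold: -1.17 for Krt8 (adjusted p = 0.011), -0.96 for Krt18 (adjusted p = 0.013) and -0.85 for Krt19 (adjusted p = 0.0084). Krt18 and Krt19 also passed without cKO mouse 6 (adjusted p = 0.028 and 0.036), and leaving out each of the other 10 mice gave no call for these 3 genes. Within slide 1 the differences of Krt8, Krt18 and Krt19 were -1.12, -1.06 and -0.88, and within slide 2, where the cKO mice were mice 4 and 5 alone, they were -2.43, -1.53 and -1.25, none of them past the threshold. Markers of some other tissue components differed between the genotypes too. The 12 skeletal muscle genes had a median difference of 2.29, positive in 12 of 12, and of 1.84 without cKO mouse 5. The 7 melanocyte markers had a median difference of -0.83, negative in 7 of 7, and of -0.29 without it, and the 6 adipocyte markers had -0.56 and -0.08. None of these 25 genes passed with all 12 mice. Without cKO mouse 5, 1 adipocyte marker passed, as higher in cKO skin, against the sign of the median. With all 12 mice the medians of the other marker lists were 0.01 (fibroblast), 0.02 (endothelium), -0.20 (macrophage), 0.11 (sebaceous gland) and 0.09 (general keratinocyte). The part of these components in the genotype differences of the keratins was not tested.

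**Figure D2:**
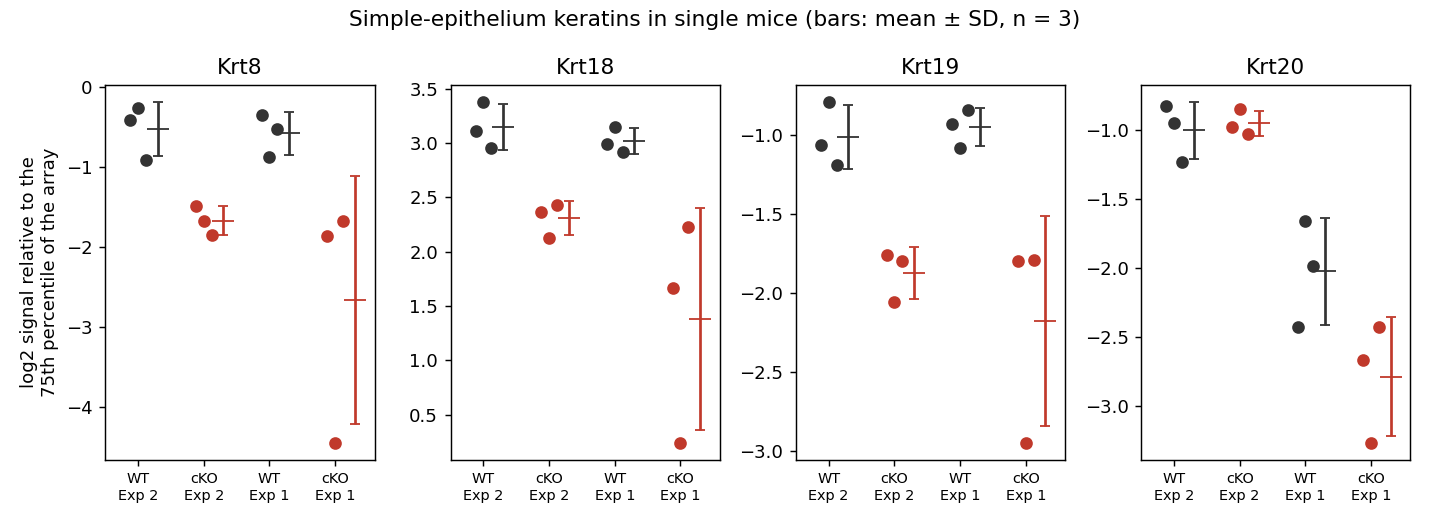
Levels of the simple-epithelium keratins Krt8, Krt18, Krt19 and Krt20 (log2 level, where 0 is the 75th percentile of the array's signal) in single mice, by genotype and experiment; points are mice and bars show mean ± SD of 3 mice. For Krt8, Krt18 and Krt19 all cKO points lie below all WT points, while Krt20 separates the experiments instead.

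The promoters of the Krt8 and Krt18 pair are shown because these neighbouring genes had lower levels in each of the 6 cKO mice than in any of the 6 WT mice; Krt19 had no entry. Each is 300 bases from the RefSeq table of GRCm38.p6, from 250 before to 50 after the start, on the strand of the gene, at chr15:102004293-102004592 (minus strand) for Krt8 and chr15:102027966-102028265 (plus strand) for Krt18. Capitals mark 4 motifs, each searched on both strands: the TATA box form TATAAA, the box CCAAT, the core shared by SOX and TCF/LEF sites, which is ACAAAG, and the TCF/LEF form CTTTGA. The last 2 overlap in kind, since both hold the letters CAAAG when 1 of them is read on the other strand.
Krt8: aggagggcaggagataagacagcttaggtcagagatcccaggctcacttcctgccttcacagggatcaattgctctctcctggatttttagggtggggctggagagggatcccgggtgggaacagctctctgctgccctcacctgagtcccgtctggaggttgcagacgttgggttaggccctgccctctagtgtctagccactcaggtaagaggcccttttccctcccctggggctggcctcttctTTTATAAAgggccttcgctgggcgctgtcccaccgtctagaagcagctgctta
Krt18: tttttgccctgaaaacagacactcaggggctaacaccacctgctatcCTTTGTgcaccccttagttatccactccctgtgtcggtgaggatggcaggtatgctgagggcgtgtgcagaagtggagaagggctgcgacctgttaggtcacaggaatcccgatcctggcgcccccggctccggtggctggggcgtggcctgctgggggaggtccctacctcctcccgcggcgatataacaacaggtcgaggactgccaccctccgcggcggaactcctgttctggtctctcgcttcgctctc
The Krt8 window holds TATAAA from 1 base before the annotated start, overlapping the same motif on the opposite strand. The Krt18 window holds ACAAAG once, on the opposite strand (CTTTGT) from 203 bases before the start. ACAAAG stood in 18.7% of all 32851 promoters of this length, and in 2 of the 20 windows of other keratins, so its presence is a description of these letters and nothing more.

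The remaining simple and glandular keratins did not share this pattern. Averaged over both experiments, Krt7, of ducts and glands, had a difference of -0.27, Krt23 of 0.04 and Krt80 of 0.19. Krt20 had -0.36, which was -0.24 without cKO mouse 5. By experiment, Krt20 was lower in cKO skin in Exp 1 (-0.76, SE 0.24, adjusted p = 0.29) and at 0.05 in Exp 2. The 14 shaft keratins had a median difference of -0.45 between the genotypes, negative in 12 of 14, and the 8 inner root sheath keratins -0.14, negative in all 8, beside -0.04 over all genes. None of these 22 had an unadjusted p under 0.05. The smallest p in the shaft belonged to Krt33b, a cortex keratin (-0.86, SE 0.44, adjusted p = 0.47), and to Krt84, a type II keratin known from tongue and nail (0.45, SE 0.26, adjusted p = 0.52). In the inner root sheath they belonged to Krt27 (-0.25, SE 0.21, adjusted p = 0.65) and Krt25 (-0.20, SE 0.22, adjusted p = 0.74). Without cKO mouse 5 the differences of Krt33b, Krt27 and Krt25 were -0.39, -0.03 and 0.03, and the medians were -0.05 for the shaft and 0.05 for the inner root sheath. The 30 other keratins had a median of 0.02 with this mouse and -0.08 without it.

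By experiment, the genotype difference of the shaft keratins was -0.79 at the median in Exp 1 and -0.13 in Exp 2. That of the other keratins was 0.32 in Exp 1 and -0.21 in Exp 2, where 27 of 30 were negative. Over all genes the medians were -0.02 in Exp 1 and -0.06 in Exp 2, where 10362 of 16183 genes were negative. No keratin passed in either experiment (0.117% of all genes passed in Exp 1 and 0.0618% in Exp 2). In Exp 1, 7 of 52 had an unadjusted p under 0.05 (11.3% of all genes), and in Exp 2, 4 of 52 (4.67% of all genes). The medians in Exp 1 without cKO mouse 5 were 0.04 for the shaft, 0.24 for the inner root sheath and 0.05 for the other keratins. The difference between the 2 genotype differences, tested as an interaction, passed for no keratin (0.00618% of all genes passed), and 3 of 52 had an unadjusted p under 0.05 (3.16% of all genes). These 3 were Krt15, a keratin of the bulge and basal layer (0.85, SE 0.27, adjusted p = 1), Krt4, a mucosal keratin above background on 3 arrays (2.28, SE 0.77, adjusted p = 1), and Krt20 (-0.81).

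The experiments were compared next, within each genotype. All 14 shaft keratins had a lower mean level in Exp 1, the experiment with the older mice, than in Exp 2, in both genotypes. In WT skin the median difference of the 14 shaft keratins, Exp 1 minus Exp 2, was -1.11 (-0.01 over all genes), from -1.60 for Krt40 to -0.64 for Krt33a. All 14 had the 3 Exp 1 mice below the 3 Exp 2 mice, as did 13.4% of all genes. In cKO skin the median was -1.80 (0.03 over all genes), and 13 of 14 did not overlap, as did 13.8% of all genes in that direction; the exception was Krt33a, where cKO mouse 6 was at 8.82 and cKO mouse 3 at 8.77. Over all 12 mice, 10 of the 14 shaft keratins were lower in every Exp 1 mouse than in every Exp 2 mouse, among 13 keratins in all (4.56% of all genes). The other 3 were the inner root sheath keratins Krt26 and Krt72 and the simple keratin Krt20.

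Krt34, a cortex keratin, was 6.92, 6.39 and 7.68 in WT mice of Exp 1 and 8.42, 8.39 and 8.48 in those of Exp 2. In cKO mice it was 6.57, 4.44 and 7.49 in Exp 1 and 8.11, 8.36 and 8.44 in Exp 2. The Exp 2 mice lay close together in both genotypes, and the Exp 1 mice were spread out below them. The difference was -2.14 in cKO skin (SE 0.62, adjusted p = 0.054) and -1.28 without cKO mouse 5 (adjusted p = 0.070).
Krt84 was 3.28, 3.50 and 4.39 in WT mice of Exp 1 and 4.56, 5.20 and 4.92 in those of Exp 2, a difference of -1.17 (SE 0.37, adjusted p = 0.13). In cKO mice it was 4.19, 2.98 and 4.25 in Exp 1 and 5.44, 5.82 and 5.86 in Exp 2, and it fell by 1.90 on the log2 scale (SE 0.37, adjusted p = 0.020, 3.74-fold lower). It was the only shaft keratin past the threshold in cKO skin, and none passed in WT skin. Krt82, of the hair cuticle, had the next smallest p in WT skin, with -1.27 (SE 0.47, adjusted p = 0.18).

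In cKO skin 10 of 52 keratins passed (9.98% of all genes did), 8 of them higher in Exp 1 (5.38% of all genes) and 2 lower (4.6% of all genes). Besides Krt84, the lower one was Krt20, the type I keratin of Merkel cells and of the gut. Krt20 was -2.67, -3.27 and -2.43 in cKO mice of Exp 1 and -0.98, -0.85 and -1.03 in those of Exp 2, a fall of 3.58-fold (-1.84, SE 0.24, adjusted p = 0.0088). In WT mice it was -2.43, -1.66 and -1.99 in Exp 1 and -0.83, -0.95 and -1.23 in Exp 2, a difference of -1.02 (SE 0.24, adjusted p = 0.073). The 6 mice of each experiment stayed apart whatever the genotype, and the difference in cKO skin passed in each of the 12 fits that left out a mouse. It was -1.57 within slide 1, where the cKO arm of Exp 2 was cKO mouse 1 alone. On slide 2 the cKO arms were 1 mouse each, cKO mouse 5 of Exp 1 and cKO mouse 4 of Exp 2, which differed by -2.25.

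The promoters of Krt34, Krt84 and Krt20 are printed because these were the 2 shaft keratins and the other keratin with the smallest p between the experiments in cKO skin. They lie at chr11:100041505-100041804 (minus strand), chr15:101532771-101533070 (minus strand) and chr11:99438104-99438403 (minus strand) of GRCm38.p6, with the same window and capitals as above.
Krt34: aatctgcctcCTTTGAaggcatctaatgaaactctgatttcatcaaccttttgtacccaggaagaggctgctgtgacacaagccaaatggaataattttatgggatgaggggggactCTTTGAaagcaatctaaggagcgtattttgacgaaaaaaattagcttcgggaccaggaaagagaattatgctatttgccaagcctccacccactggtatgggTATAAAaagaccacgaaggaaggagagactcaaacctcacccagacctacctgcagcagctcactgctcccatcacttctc
Krt84: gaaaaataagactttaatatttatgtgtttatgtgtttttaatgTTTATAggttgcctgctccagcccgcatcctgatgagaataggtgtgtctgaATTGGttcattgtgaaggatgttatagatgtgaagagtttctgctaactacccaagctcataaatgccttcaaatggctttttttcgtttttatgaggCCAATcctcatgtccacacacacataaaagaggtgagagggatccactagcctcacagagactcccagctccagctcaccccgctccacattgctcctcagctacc
Krt20: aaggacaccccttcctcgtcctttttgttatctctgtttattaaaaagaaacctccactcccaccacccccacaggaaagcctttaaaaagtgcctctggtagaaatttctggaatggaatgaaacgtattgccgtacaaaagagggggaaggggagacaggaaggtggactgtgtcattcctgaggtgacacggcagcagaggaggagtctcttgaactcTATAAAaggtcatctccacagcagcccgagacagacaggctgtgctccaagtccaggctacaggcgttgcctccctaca
Krt34 and Krt20 hold TATAAA from 31 and 29 bases before the start, and Krt84 holds it on the opposite strand alone, from 206 bases before. Among the 36 keratin genes with a promoter entry, TATAAA stood in 6 of 9 shaft, 7 of 7 inner root sheath and 6 of 20 other windows, and in 13.6% of all promoters. CTTTGA, which Krt34 holds from 240 and from 133 bases before the start, stood in 5 of 9 shaft windows (Krt31, Krt32, Krt33b, Krt34 and Krt39), 1 of 7 inner root sheath and 3 of 20 other windows, and in 16.0% of all promoters. CCAAT stood in 5 of 9, 4 of 7 and 5 of 20 windows and in 37.4% of all promoters.

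The keratins higher in Exp 1 of cKO skin came from the basal, suprabasal and outer root sheath, duct and stress layers. All 3 basal keratins passed: Krt5 (0.73, SE 0.20, adjusted p = 0.045), Krt14 (1.15, SE 0.27, adjusted p = 0.031) and Krt15 (0.85, SE 0.19, adjusted p = 0.028). Krt14 was 7.27, 8.28 and 7.10 in cKO mice of Exp 1 and 6.46, 6.21 and 6.53 in those of Exp 2, without overlap. In WT mice it was 7.09, 7.27 and 6.92 in Exp 1 and 6.64, 6.80 and 6.44 in Exp 2, also without overlap but not past the threshold (0.46). Of the 6 suprabasal keratins, Krt10 (1.19, SE 0.31, adjusted p = 0.042) and Krt78 (1.68, SE 0.46, adjusted p = 0.047) passed, while Krt1, the type II partner of Krt10, had a difference of 2.21 that missed the threshold (adjusted p = 0.052). Krt10 was 8.40, 9.19 and 7.74 in cKO mice of Exp 1 and 7.29, 7.02 and 7.45 in those of Exp 2. Of the 6 sheath, duct and stress keratins, Krt6a (0.91, SE 0.19, adjusted p = 0.024), Krt6b (1.41, SE 0.34, adjusted p = 0.032) and Krt79, which marks the duct of the sebaceous gland (1.11, SE 0.23, adjusted p = 0.023), passed. When cKO mouse 5 was left out the differences of Krt6b, Krt78 and Krt1 were 0.91, 1.11 and 1.37, and Krt14 and Krt6b alone of these 8 called genes still passed. The other 6 had adjusted p from 0.052 (Krt79) to 0.12 (Krt5). Besides Krt78, their differences were then 0.59 (Krt5), 0.82 (Krt10), 0.90 (Krt15), 0.74 (Krt6a) and 0.91 (Krt79). Krt6a and Krt6b are near-identical genes whose probes may read both transcripts.

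In WT skin none of the 52 keratins passed between the experiments (0.84% of all genes did), and 9 had an unadjusted p under 0.05 (18.5% of all genes). There, 6 of 52 had all Exp 1 mice above all Exp 2 mice (14.5% of all genes) and 20 of 52 all below (13.4% of all genes). In cKO skin 12 of 52 were above (17.4% of all genes) and 16 below (13.8% of all genes). Over all 12 mice, Krt6a, Krt6b, Krt10 and Krt14 were higher in every Exp 1 mouse than in every Exp 2 mouse (4 of 52, beside 5.72% of all genes). The inner root sheath keratins stood between the shaft and the other keratins, with median differences of -0.23 in WT and -0.49 in cKO skin. Their smallest p belonged to Krt74 in WT skin (1.61, SE 0.62, adjusted p = 0.20) and to Krt26 in cKO skin (-0.97, SE 0.43, adjusted p = 0.17). The class median in cKO skin was 0.07 without cKO mouse 5, and the difference of Krt26 was -0.48.

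**Figure D3:**
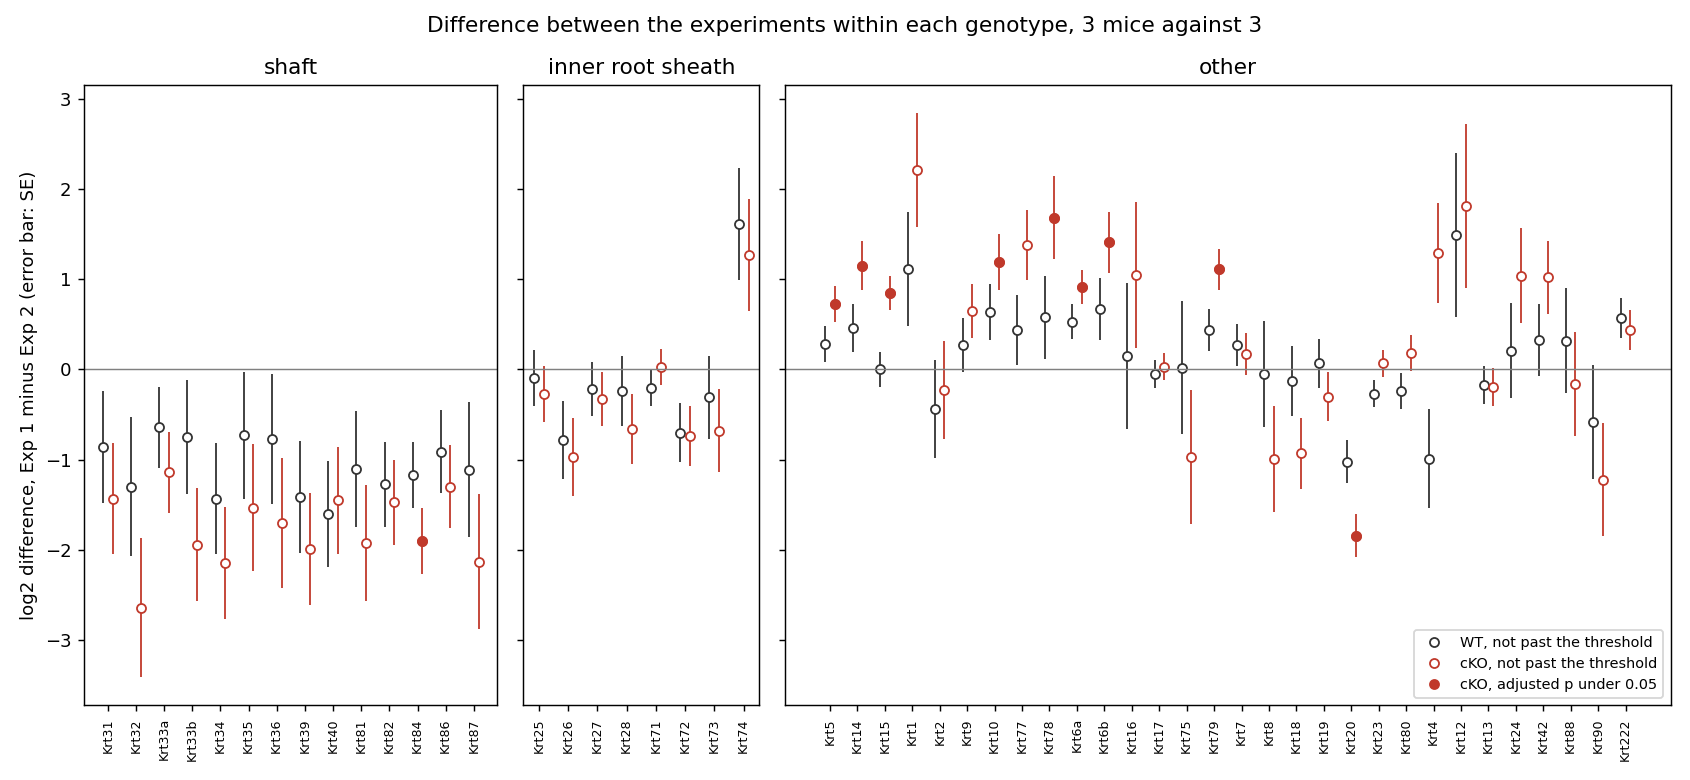
Log2 difference between the experiments (Exp 1 minus Exp 2) of each keratin gene in WT (dark) and cKO (red) skin, with SE bars, 3 mice against 3; filled points passed an adjusted p of 0.05. All 14 shaft keratins lie below 0 in both genotypes, and the called genes other than Krt20 and Krt84 lie above 0 in cKO skin.

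The counts in cKO skin rested on single mice. The shares of all genes called in these refits are not given, so the counts below are not a result about the keratins. Without cKO mouse 5 there were 4 calls (Krt14, Krt20, Krt6b and Krt84), and the shaft median was -0.92 with this mouse left out. Without cKO mouse 6 there were 26. Leaving out cKO mouse 3 or cKO mouse 4 left 1, Krt20, and leaving out cKO mouse 1 or cKO mouse 2 left 5. In WT skin leaving out cKO mouse 5, which enters the shared estimate of the spread, gave 5 calls (Krt20, Krt31, Krt34, Krt6b and Krt82). With slide as a block the count in cKO skin was 1, Krt20, and the shaft medians were -1.35 in WT and -1.87 in cKO skin. The array of cKO mouse 3 was alone on slide 3. Within slide 1, where the Exp 2 arms were WT mouse 5 and cKO mouse 1 alone, the shaft medians were -0.99 in WT and -0.79 in cKO skin. Within slide 2, where the cKO value compares cKO mouse 5 with cKO mouse 4 alone, they were -1.05 and -3.82. In the array position on the slide, 5 of 6 Exp 1 arrays lay in row 2 and 5 of 6 Exp 2 arrays in row 1; with this row as a block the medians were -0.76 in WT and -1.65 in cKO skin.

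**Figure D4:**
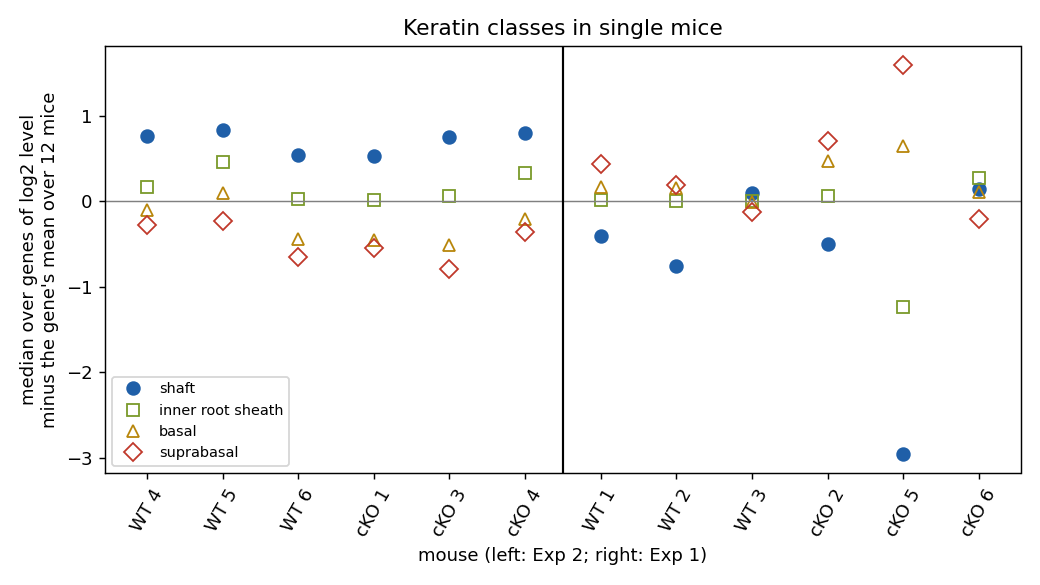
Median over the genes of a class of the log2 level minus each gene's mean over 12 mice, for 4 keratin classes in each mouse (left, Exp 2; right, Exp 1). Shaft values lie between 0.53 and 0.83 in the 6 Exp 2 mice and between -2.95 and 0.15 in the 6 Exp 1 mice, with cKO mouse 5 lowest, and suprabasal values are highest in the same mouse, at 1.59.

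Some other tissue components also moved with the experiment. The summed level of 12 skeletal muscle genes, on a linear scale where 1 is the 75th percentile of the array, was between 1.98 and 3.64 in WT and between 3.70 and 48.8 in cKO mice of Exp 1. In Exp 2 it was between 12.3 and 1261 in WT and between 641.9 and 1257 in cKO mice. WT mouse 5 had the 12.3, and its shaft class value was 0.83. All 12 muscle genes had a negative difference, Exp 1 minus Exp 2, in both genotypes, and 10 of them passed in cKO skin (1 without cKO mouse 5). The 6 adipocyte markers had median differences, Exp 1 minus Exp 2, of -1.10 in WT and -1.83 in cKO skin, and the 4 macrophage markers above background (Cd68 was not) of -0.44 and -0.86. The 7 melanocyte markers had a median of 0.08 in WT and of -1.27 in cKO skin, which was -0.21 without cKO mouse 5, and the adipocyte median in cKO skin was -0.83 without it. The 6 sebaceous gland markers had medians of 0.38 in WT and 0.60 in cKO skin, where 2 passed as higher (1 without cKO mouse 5, with a median of 0.37). The 8 general keratinocyte markers had medians of 0.18 in WT and 0.45 in cKO skin (0.35 without cKO mouse 5). In each genotype 7 of 8 were positive, and Sfn was the exception (-0.56 and -0.28). In cKO skin 2 passed as higher, with and without cKO mouse 5. Their linear sums, which weigh the brightest genes most, lay between 688.7 and 891.5 in cKO mice of Exp 1. In those of Exp 2 the sums lay between 544.6 and 632.2. In WT mice the sums overlapped, from 585.8 to 687.9 in Exp 1 and from 525.9 to 665.4 in Exp 2. The 6 fibroblast markers had medians of -0.19 in WT and -0.10 in cKO skin, where 1 passed as lower. The 4 endothelium markers had -0.13 in both. The part of these components in the keratin differences was not tested.

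Regulators and partners of the keratins were taken from a list of 30, all of which passed the filter. With all 12 mice, the genotype comparisons, their interaction and the comparison in WT skin called 0 of them. Without cKO mouse 5, 1 of the 30 passed as lower in cKO skin in the averaged genotype comparison. Between the experiments, 2 then passed as lower in Exp 1 of WT skin. In cKO skin 1 passed as higher and 2 as lower without that mouse. Between the experiments in cKO skin 3 of 30 passed with all 12 mice, beside 9.98% of all genes, so this count is not a result about the list. Of the 3, Grhl3, a barrier transcription factor, was higher in Exp 1 (1.00, SE 0.21, adjusted p = 0.023), as was Sox9, a factor of the outer root sheath and bulge (0.43, SE 0.094, adjusted p = 0.027), and Dsc2, a desmosomal cadherin, fell by 2.07 (SE 0.32, adjusted p = 0.012). Sox9 did not pass without cKO mouse 5 (adjusted p = 0.053). The median difference of the list was 0.05 there and -0.08 between the genotypes, where 19 of 30 were negative. Hoxc13 and Foxn1, transcription factors that act on shaft keratin genes, are on the list and did not pass. Hoxc13 was lower in every Exp 1 mouse (1.62 to 3.56) than in every Exp 2 mouse (3.58 to 4.09), as were 4.56% of all genes. Foxn1 overlapped, with 0.53 to 2.59 in Exp 1 and 2.39 to 2.63 in Exp 2. Both had their lowest level in cKO mouse 5. Their part in the shaft keratin levels was not tested.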

How the data were processed

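The scanner files were written by Feature Extraction 11.5.1.1, and per the file headers they hold spot intensities that the software background-subtracted before deposit, with flags for outlier, saturated and above-background spots. A table of log2 values was also deposited by the authors; the submitters' processing notes name limma for it, its other steps are not stated in the labels, and it served as an alternative. Outlier spots were left out, spots of a probe averaged, and each array's 75th percentile of log2 processed intensity subtracted, without a floor. Probes were named through RefSeq accessions (27509 of 55681 had a symbol), kept if above background on at least 3 of 12 arrays, and each gene took its kept probe of highest mean.

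With limma 3.58.1 in R 4.3.3, a model of 4 group means and 6 contrasts was run on all 16183 genes (8 residual and 2.3 prior degrees of freedom). Tests were two-sided, adjusted by Benjamini-Hochberg over all genes, at a threshold of 0.05; errors are SE. The fit was tested on simulated data with independent normal spread, for the averaged genotype contrast alone. That simulation held no slide effect, age effect or outlying mouse, so it does not bear on these. Precision is limited by the number of arrays. Nothing says that mice of a group came from separate litters. Differences were given for keratins past the threshold and for the 2 of each class with the smallest p. Some keratins outside this rule, among them Krt1, Krt7, Krt8, Krt23, Krt80 and Krt222, were also given with their values known. Mouse numbers did not pair the samples. The model has no term for slide or slide row, so its p-values are not adjusted for them; both entered as alternatives, as blocks or, for slide, as separate fits. The genes, classes, lists and motifs were chosen with earlier results of these data known. Motifs were counted in RefSeq promoters (GRCm38.p6), which matched 36 keratin genes, 1 of them with several rows, of which the first was used.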

Additional observations from a re-analysis of the deposited data

How the results depend on the processing

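The fits were repeated with other scalings, filters, probe rules and batches, and without each mouse in turn. The shares of all genes called in these alternative fits are not given. Counts of called keratins in them are therefore not a result about the keratins. The cause of each change was not tested, except that the fits within a slide hold 5 or 6 mice, with 1 or 2 per group. The class medians vary by an SD of 0.85 (shaft), 0.43 (inner root sheath) and 0.19 (other) between mice of a group, and dim keratins (Krt4, Krt12, Krt74 and Krt88) are limited by signal near background. Values are Exp 1 minus Exp 2 or cKO minus WT, and "interaction" is the difference of the genotype differences.

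For the averaged genotype contrast the count of called keratins was 2 with normexp and quantile normalization (Krt8 and Krt19), 1 with a filter on all 12 arrays and 1 with an intensity trend (Krt19 in both), 3 without both mice numbered 5, and 0 to 3 when 1 mouse was left out. With the mouse number as a replicate block it stayed 0, and the differences of Krt8, Krt18 and Krt19 were -1.61, -1.24 and -1.05 (adjusted p = 0.42, 0.41 and 0.35). The correlations of same-numbered mice, from -0.26 to 0.0717, did not pair them. With normexp and quantile normalization the other keratins had a median of 0.34 between the experiments in cKO skin.

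The count in cKO skin between the experiments was 1 with slide as a block, 5 with slide row as a block, 0 within slide 1, 39 within slide 2, 0 in the authors' value table, 6 in that table without cKO mouse 1, 6 without both mice numbered 5, and 1 to 26 when 1 mouse was left out. In WT skin it was 6 within slide 2, 2 without both mice numbered 5 and 0 to 5 when 1 mouse was left out.

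Within slide 1, where the Exp 2 arms were WT mouse 5 and cKO mouse 1 alone, Krt25 was 0.01 between the genotypes. In Exp 1 the inner root sheath and other medians were 0.24 and 0.08, Krt28 was 0.08 and Krt73 was 0.19, and in Exp 2 the other median was -0.42. The interaction was 0.31 (shaft), 0.79 (inner root sheath), 0.46 (Krt28), 0.04 (Krt33b) and 0.02 (Krt84). Between the experiments, the other median in WT skin was -0.08, and in cKO skin the medians were -0.79 (shaft), 0.16 (inner root sheath) and 0.28 (other). On slide 2 the arms are 1 mouse each except WT in Exp 2, and the cKO arm of Exp 1 is cKO mouse 5 alone, so its calls, with 1 residual degree of freedom, compare single mice and rest on the spread of WT mice 4 and 6. There the genotype contrast in Exp 1 called 29, with medians of -2.50 (shaft) and -1.39 (inner root sheath). In Exp 2, Krt27 was 0.03 and Krt71 was 0.20. The interaction called 13, with medians of -2.53 and -1.65, and Krt71 was -0.61. In cKO skin the medians between the experiments were -3.82 (shaft) and -1.58 (inner root sheath).

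In the authors' value table, whose column for cKO mouse 1 correlated with the array of that mouse at 0.9461 and best with WT mouse 6 (the other 11 columns were nearest their own array), the averaged genotype median of the inner root sheath was -0.78 and Krt84 was -0.35. In Exp 2 the medians were -1.63 (shaft) and -1.22 (inner root sheath), Krt39 was -0.66 and Krt84 was -0.79. The interaction was 0.80 (shaft), 0.77 (inner root sheath), -0.07 (Krt15), 0.78 (Krt28), 0.53 (Krt33b) and 0.88 (Krt84). Between the experiments in cKO skin the medians were -0.06 (shaft), 0.71 (inner root sheath) and 0.31 (other), Krt26 was 0.60 and Krt72 was 0.29. Without that column the other median was again 0.31, and the shaft and inner root sheath medians were not among the changed results. Krt84 was then -1.92 between the experiments in cKO skin, beside -0.12 with the column. Krt26 and Krt72 were negative there once the column was left out.

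Without both mice numbered 5, Krt25 and Krt27 were 0.08 and 0.01 between the genotypes. In Exp 1 the inner root sheath and other medians were 0.24 and 0.05, Krt28 was 0.12 and Krt73 was 0.21. The interaction was 0.15 for the shaft and 0.15 for the other keratins. In cKO skin between the experiments the medians were -0.92, 0.07 and 0.38 (shaft, inner root sheath and other).

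When 1 mouse was left out, the Exp 1 genotype count was 0 to 1, with inner root sheath median -0.52 to 0.24, other median 0.05 to 0.47, Krt28 -0.83 to 0.12 and Krt73 -0.93 to 0.21. Krt25 between the genotypes was -0.34 to 0.03. The interaction was -1.28 to 0.17 (shaft), -0.47 to 0.32 (inner root sheath) and -0.81 to 0.15 (Krt28). In cKO skin the medians were -2.28 to -0.92 (shaft), -0.77 to 0.07 (inner root sheath) and 0.38 to 0.86 (other). In each of these ranges the end nearer to or past 0 came without cKO mouse 5. The counts are apart from this: the 1 call in Exp 1 came without cKO mouse 6.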

Other observations

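A second kept probe was present for 9 of the keratin genes, and these probes were not used in the fit. Their difference had the sign of the used probe in 6 of 9 genes between the genotypes, in 7 of 9 between the experiments in cKO skin and in 8 of 9 in WT skin. Those of Krt36 and Krt78 were close to the used probe, with -1.72 and 1.81 between the experiments in cKO skin beside -1.70 and 1.68.

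The second probe of Krt6b, a keratin of the companion layer and of wounded epidermis, ranged from -2.52 in cKO mouse 4 to 7.59 in cKO mouse 5, while the used probe lay between 1.76 and 4.26. It read 2.99, 1.61 and 3.96 in WT mice of Exp 1 and 1.17, 0.36 and -2.01 in WT mice of Exp 2. In cKO mice it read 0.50, 7.59 and -0.29 in Exp 1 and -1.88, -2.28 and -2.52 in Exp 2. It was higher in every Exp 1 mouse than in every Exp 2 mouse of the same genotype, with larger differences than the used probe in WT skin (3.02 beside 0.67) and in cKO skin (4.82 beside 1.41). This probe was singled out after its values were seen, and which transcript it reads was not tested.

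The 2 probes of Krt2, a keratin of the upper suprabasal layers, differed in sign. The used probe had a difference of 0.54 between the genotypes and the second probe of -0.70, and between the experiments in cKO skin they had -0.23 and 0.87.

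Krt90, a type II gene without an assigned layer, was -2.83 in cKO mouse 5 and between -1.02 and 0.46 in the other 11 mice, below them as most shaft keratins were. Krt75, a keratin of the companion layer, was 0.25 in that mouse and between 2.37 and 3.94 in the others, unlike the other outer root sheath, duct and stress keratins, of which 4 were above all 11.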
